A study of Mus musculus with 6 samples.

Results

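The interferon response and MHC class I genes described here are 31 named genes: interferon-stimulated genes, Stat and Irf factors, and the MHC class I and peptide-loading genes. They were found by symbol among the 24016 genes of the deposited expression table, and all 31 had a row. RNA was measured in 6 libraries of basal esophageal epithelial cells from Krt15-CrePR1;R26mTomato/mGFP mice, 3 of Krt15-positive cells (CD29high GFP+) and 3 of Krt15-negative cells (CD29high GFP-). All mice had been given 1 mg of RU486 (mifepristone, which activates the CrePR1 recombinase), and cells were sorted 24 h later. CD29 is integrin beta-1, and GFP marks cells in which Cre, driven by the Krt15 promoter, had switched the reporter. The group names thus refer to recombination and not to the level of Krt15, and both groups carry the same alleles and the same drug. The sources used here do not give the age, sex or number of the mice, and no group was treated with interferon.

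Interferons are secreted proteins that act on nearby cells through paired receptors and JAK kinases. Type I and III interferons activate a complex with Stat2 and Irf9 that binds interferon-stimulated response elements (ISRE), and interferon gamma acts through gamma-activated sites (GAS). The target genes encode antiviral proteins and the machinery that cuts proteins into peptides and shows them on MHC class I. A low, constant level of this program is known in many barrier epithelia, and MHC class I is present on nearly all nucleated cells.

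Promoter sequences of 4 members are shown because each holds the ISRE core, while Isg15 and Ifit1 transcripts were found in some libraries and those of B2m and Ifitm3 in all. The sequences are from RefSeq (build GRCm38.p6) and run 5′ to 3′ on the gene's strand, from 250 bases before the start site to 50 after it. Capitals mark the ISRE core, written as GAAA, any pair of bases, GAAA, and the GAS, written as TTCNNNGAA, each searched on both strands. Isg15 (chr4:156200769-156201068, minus strand) and Ifit1 (chr19:34640639-34640938, plus strand) belong to the inducible members. B2m (chr2:122147437-122147736, plus strand) and Ifitm3 (chr7:141010695-141010994, minus strand) were abundant in every library.
Isg15: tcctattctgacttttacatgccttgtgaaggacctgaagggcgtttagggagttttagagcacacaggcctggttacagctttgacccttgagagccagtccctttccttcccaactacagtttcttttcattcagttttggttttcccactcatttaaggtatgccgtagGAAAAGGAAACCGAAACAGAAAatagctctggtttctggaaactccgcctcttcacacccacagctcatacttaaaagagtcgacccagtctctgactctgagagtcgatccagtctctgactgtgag
Ifit1: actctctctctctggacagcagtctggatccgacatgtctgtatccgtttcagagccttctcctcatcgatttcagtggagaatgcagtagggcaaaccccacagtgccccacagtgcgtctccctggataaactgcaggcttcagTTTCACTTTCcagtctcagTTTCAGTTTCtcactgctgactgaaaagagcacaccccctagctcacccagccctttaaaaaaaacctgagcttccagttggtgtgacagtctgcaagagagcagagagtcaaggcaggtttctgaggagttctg
B2m: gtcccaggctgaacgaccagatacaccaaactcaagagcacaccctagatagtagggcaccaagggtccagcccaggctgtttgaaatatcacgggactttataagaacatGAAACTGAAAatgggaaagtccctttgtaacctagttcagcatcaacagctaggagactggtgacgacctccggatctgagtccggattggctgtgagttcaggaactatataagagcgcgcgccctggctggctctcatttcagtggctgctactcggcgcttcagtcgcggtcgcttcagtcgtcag
Ifitm3: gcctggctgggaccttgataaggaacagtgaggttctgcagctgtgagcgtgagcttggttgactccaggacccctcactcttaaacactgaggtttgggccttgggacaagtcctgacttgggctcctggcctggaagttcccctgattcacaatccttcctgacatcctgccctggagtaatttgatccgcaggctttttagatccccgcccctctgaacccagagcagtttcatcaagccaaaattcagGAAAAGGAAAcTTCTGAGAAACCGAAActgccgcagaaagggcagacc

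Isg15 held 3 overlapping matches to the ISRE core and Ifit1 held 2, whereas B2m held 1 and Ifitm3 held 2 together with a GAS that overlaps one of them. Those of Ifitm3 lie after the start site. Irf1, Tapbp, H2-K1 and H2-D1, also found in all libraries, held no ISRE core in their windows. Of the 31 members, 27 had a promoter window in the RefSeq table, and 13 of these 27 (48.1%) held the ISRE core in at least 1 window. Among all 27025 genes with a window the share was 3.99%. The GAS was present in 6 of 27 members (22.2%) and in 9.55% of all genes. A match is a description of the letters and not a binding site. The members were named as interferon-related genes beforehand, so their higher shares are not a result of these libraries.

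The levels split the members into a few that were high in all 6 libraries and a majority that was low or listed at 0 in several. Values are FPKM, fragments per kilobase of transcript and per M mapped fragments (M, mega), as the authors estimated them. Only 5 members stood at 1 FPKM or more in every library: Ifitm3, B2m, H2-D1, H2-K1 and Tapbp. Another 6 members, Ifit2, Ifit3, Oasl1, Mx2, Rsad2 and Gbp3, reached 1 FPKM in none. The remaining 20 members reached it in 1 to 5 libraries.

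**Figure D1:**
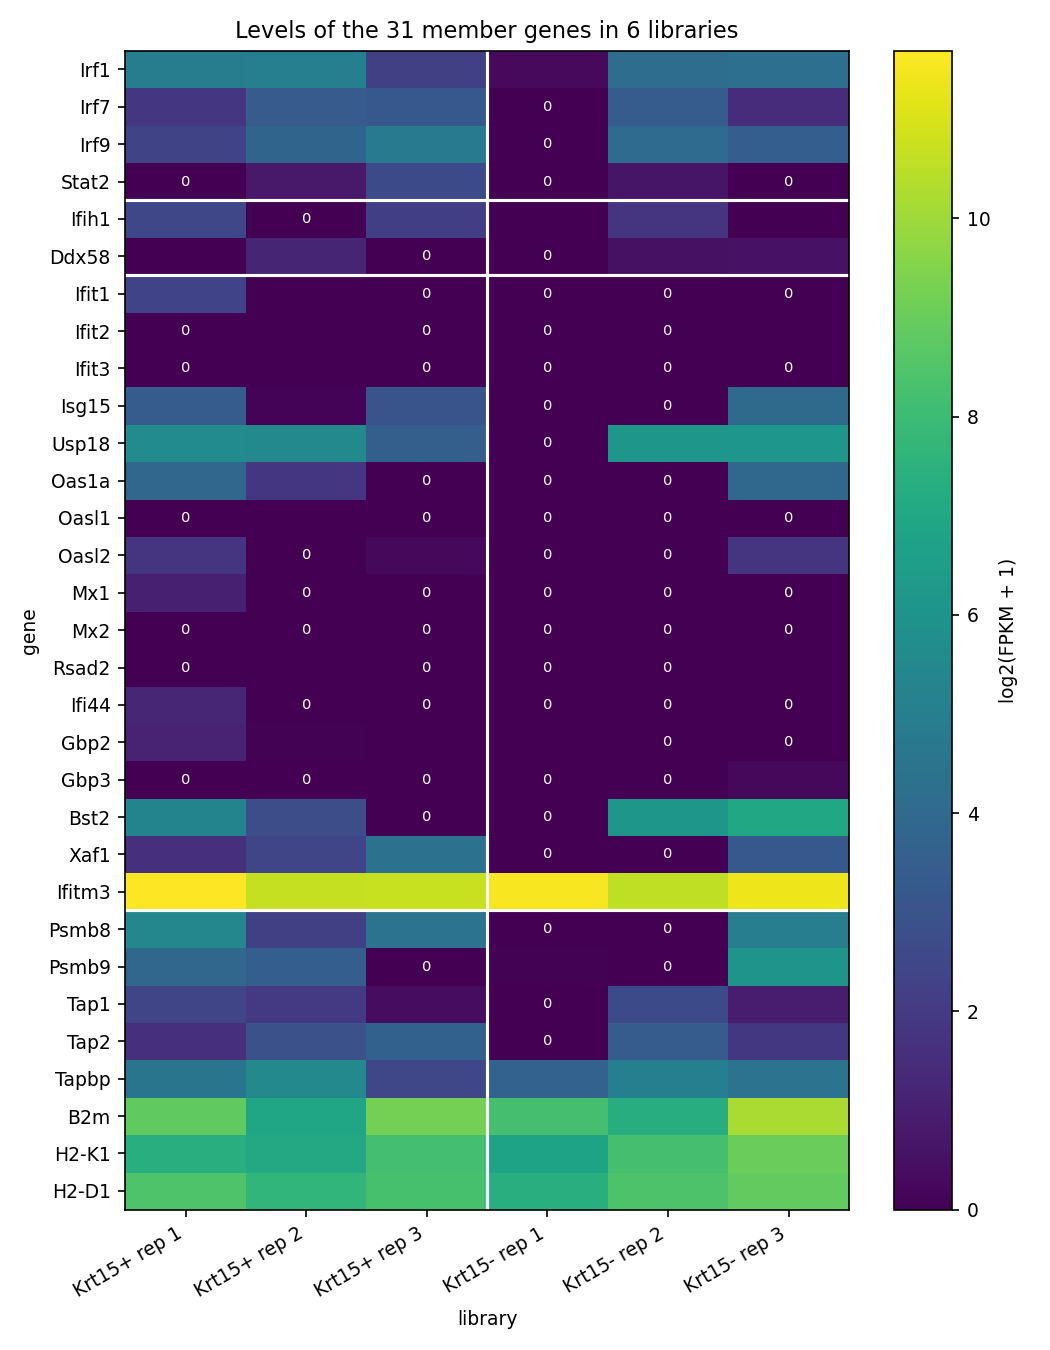
Levels of the 31 member genes as log2(FPKM + 1), 1 row per gene and 1 column per library, Krt15-positive libraries on the left. A white 0 marks a value listed as exactly 0, and white lines separate the transcription factors, RNA sensors, antiviral genes and MHC class I genes. Ifitm3, B2m, H2-K1 and H2-D1 are bright in all 6 columns, and the Krt15-negative replicate 1 column holds 22 zeros.

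Libraries differed widely in how many genes they held, which bears on every low member. Krt15-positive replicates 1 to 3 had 8466, 9194 and 7072 genes at 1 FPKM or more, and Krt15-negative replicates 1 to 3 had 3247, 6906 and 7934. The depth, estimated from the step that 1 fragment makes in FPKM times length, was 27.4, 34 and 29.9 M fragments in the Krt15-positive libraries and 29, 41.5 and 39.4 M in the Krt15-negative ones. The Krt15-negative replicate 1 library therefore had few genes at a depth like that of the others. Of 9 basal keratinocyte markers, 9 in each Krt15-positive library and 8, 9 and 9 in the Krt15-negative ones reached 1 FPKM, with Krt5 at 414, 1293 and 376 FPKM in Krt15-positive and 479, 1029 and 369 FPKM in Krt15-negative libraries. Several of these markers were low in Krt15-negative replicate 1: Trp63, a basal cell factor, was at 0.459 FPKM there and between 30.8 and 87.2 FPKM elsewhere, and Itgb1, which encodes the CD29 used in the sort, at 1.03 FPKM there and between 10.8 and 43.3 FPKM elsewhere. Tbp, a gene that every cell uses, was listed at 0 in Krt15-negative replicates 1 and 2, so a 0 in this table does not show that a transcript was absent. Krt15 itself was at 3350, 9692 and 2420 FPKM in Krt15-positive and 2350, 6784 and 3412 FPKM in Krt15-negative libraries (difference 0.18, limma adjusted p = 0.93). Suprabasal Krt13 was also abundant, at 847, 3212 and 3771 FPKM in Krt15-positive and 1066, 3452 and 3278 FPKM in Krt15-negative libraries.

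Members at 1 FPKM or more numbered 23, 17 and 15 of 31 in Krt15-positive replicates 1 to 3 and 5, 13 and 17 in Krt15-negative replicates 1 to 3. As a share of the 31 this was 74.2%, 54.8% and 48.4% in Krt15-positive and 16.1%, 41.9% and 54.8% in Krt15-negative libraries. The same share over all genes in the table was 35.3%, 38.3% and 29.4% in Krt15-positive and 13.5%, 28.8% and 33% in Krt15-negative libraries. Both shares were lowest in Krt15-negative replicate 1, where the only members at 1 FPKM or more were the 5 that every library held. The ranges of the groups overlap for the members.

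**Figure D2:**
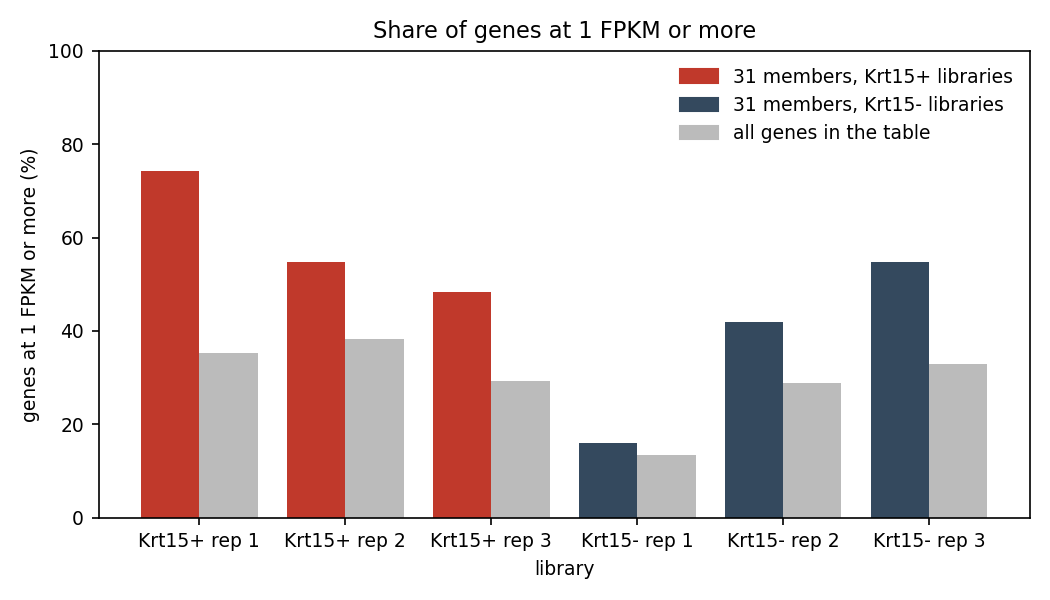
Percentage of genes at 1 FPKM or more (y axis) in each library (x axis), coloured bars for the 31 members and grey bars for all genes in the table. The member share runs from 16.1% in Krt15-negative replicate 1 to 74.2% in Krt15-positive replicate 1.

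The MHC class I heavy chains H2-K1 and H2-D1 and their light chain were abundant in every library. B2m, beta-2 microglobulin, the light chain of every class I molecule, stood at 456, 121 and 612 FPKM in Krt15-positive and 298, 153 and 1162 FPKM in Krt15-negative libraries (396 ± 251 and 538 ± 545.5, SD, n = 3 each). H2-D1, a classical heavy chain that presents peptides to CD8 T cells, stood at 356, 207 and 307 FPKM in Krt15-positive and 167, 341 and 474 FPKM in Krt15-negative libraries (290 ± 76.1 and 327 ± 154, SD, n = 3 each). H2-K1, another classical heavy chain, stood at 162, 130 and 290 FPKM in Krt15-positive and 111, 300.4 and 524 FPKM in Krt15-negative libraries (194 ± 84.6 and 312 ± 207, SD, n = 3 each). All 3 genes were highest in Krt15-negative replicate 3, the groups overlapped for each, and in every library each ranked above the 95th percentile of all genes in the table. That rank includes genes listed at 0, between 12517 and 17605 of the 24016 in a library.

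None of the 3 differed beyond the replicate spread. The difference in log2(FPKM + 1), Krt15-positive minus Krt15-negative, was -0.22 for B2m (SE 0.81, 95% CI -1.98 to 1.54, limma adjusted p = 0.95). It was -0.50 for H2-K1 (SE 0.69, 95% CI -2.02 to 1.02, limma adjusted p = 0.85) and -0.08 for H2-D1 (SE 0.57, 95% CI -1.34 to 1.17, limma adjusted p = 0.97). With upper-quartile scaling, which raised the median over all genes tested to 0.85 from 0.63, the B2m and H2-D1 differences turned to 0.18 and 0.31. Weighting the libraries gave -1.33 for B2m, -1.33 for H2-K1 and -0.58 for H2-D1. The weights were 1.55, 1.37 and 0.998 for Krt15-positive replicates 1 to 3 and 0.225, 0.655 and 3.2 for Krt15-negative ones. The weighted differences thus lean on Krt15-negative replicate 3, where all 3 genes were highest. H2-K1 and H2-D1 share some sequence with each other and with further genes. Of the 50-base stretches of the H2-K1 transcript, 8.79% occur in transcripts of other genes and 6.94% in those of H2-D1. For H2-D1 the share with any other gene was 14.3%, and the largest with 1 gene was 7.4%, with H2-Q1. Reads could thus be shared between class I genes.

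Leukocytes and fibroblasts also carry MHC class I, and their markers varied between these libraries. The summed level of the 21 measured immune cell markers was 7322, 166 and 147 FPKM in Krt15-positive and 606, 1060 and 1136 FPKM in Krt15-negative libraries. The 7322 FPKM were almost all Lyz2, lysozyme, at 7279 FPKM in Krt15-positive replicate 1. Of the 21 markers, 4, 9 and 4 reached 1 FPKM in Krt15-positive and 3, 11 and 10 in Krt15-negative libraries. Ptprc, the pan-leukocyte marker CD45, was listed at 0, 0.0102 and 0.00625 FPKM in Krt15-positive and at 0.0131, 3.95 and 0.0618 FPKM in Krt15-negative libraries. Next to Lyz2 in mean level, Nkg7 was highest in Krt15-negative replicate 2, at 459 FPKM, and H2-Ab1 in Krt15-negative replicate 3, at 222 FPKM. Of 14 tested markers, 2 had a difference above 0 and 12 below 0 (median -1.52), beside 68.6% and 31.4% of all genes tested. Without overlap, 0 were higher and 2 lower in Krt15-positive libraries, beside 8.85% and 2.44% of all genes tested. The summed level of 13 fibroblast markers was 186, 222 and 78.5 FPKM in Krt15-positive and 541, 471 and 894 FPKM in Krt15-negative libraries, with no overlap between groups. Most of the Krt15-positive sums was Dcn, at 167, 176 and 71.1 FPKM, whose groups overlapped (difference 0.07). Of 12 tested fibroblast markers, 8 were lower in Krt15-positive libraries without overlap, beside 2.44% of all genes tested, and 0 were higher, beside 8.85%. Of the 13, 3, 4 and 3 reached 1 FPKM in Krt15-positive and 10, 10 and 13 in Krt15-negative libraries. Whether such cells contribute to the class I levels was not tested, and fewer cells of a type cannot be told apart from less RNA per cell in these bulk libraries.

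The peptide-loading and processing members were far lower than the chains they serve. Tapbp, tapasin, which holds class I molecules at the peptide transporter, stood at 22.4, 44.7 and 4.68 FPKM in Krt15-positive and 11.7, 31.8 and 21 FPKM in Krt15-negative libraries (23.9 ± 20.1 and 21.5 ± 10.1, SD, n = 3 each). Tap1 and Tap2 form the transporter that carries peptides into the endoplasmic reticulum. Tap1 was at 4.51, 2.93 and 0.318 FPKM in Krt15-positive libraries and at 0, 5.10 and 0.830 FPKM in Krt15-negative ones. Tap2 was at 2.04, 6.48 and 11.2 FPKM in Krt15-positive and 0, 9.47 and 2.71 FPKM in Krt15-negative libraries, so both were listed at 0 in Krt15-negative replicate 1 alone. Their differences were 0.45 for Tap1 (SE 1.08), 0.94 for Tap2 (SE 1.24) and -0.20 for Tapbp (SE 1.12, 0.18 with upper-quartile scaling), with limma adjusted p = 0.92, 0.84 and 0.97 in that order.

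Psmb8 and Psmb9 encode catalytic subunits of the immunoproteasome, the form of the proteasome that interferon induces. Psmb8 stood at 41.4, 3.62 and 20.7 FPKM in Krt15-positive libraries and at 0, 0 and 31.3 FPKM in Krt15-negative ones. Its difference of 2.35 (SE 1.55, 95% CI -1.05 to 5.74, limma adjusted p = 0.79) had the largest size among the tested members on this scale and did not pass. It was 0.11 with library weights, 4.44 with a pseudocount of 0.1 FPKM and 1.17 with one of 5 FPKM. Without Krt15-negative replicate 1, or without replicate 2, it was 1.51, and without replicate 3 it was 4.02. Psmb9 stood at 13.5, 10.4 and 0 FPKM in Krt15-positive and at 0.0491, 0 and 65.7 FPKM in Krt15-negative libraries (difference 0.41, SE 1.73, limma adjusted p = 0.96). Psmb9 was listed at 0 in 1 library of each group.

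The start sites of Psmb9 and Tap1 face away from each other across a shared promoter region, shown here because 2 members are read from the same DNA. Only 225 bases lie between the start sites, and the RefSeq windows share 275 bases (chr17:34187306-34187580, build GRCm38.p6, plus strand, 5′ to 3′ towards Tap1). The region held no ISRE core and no GAS as written above, which says only that those letters are absent from it.
Psmb9 and Tap1: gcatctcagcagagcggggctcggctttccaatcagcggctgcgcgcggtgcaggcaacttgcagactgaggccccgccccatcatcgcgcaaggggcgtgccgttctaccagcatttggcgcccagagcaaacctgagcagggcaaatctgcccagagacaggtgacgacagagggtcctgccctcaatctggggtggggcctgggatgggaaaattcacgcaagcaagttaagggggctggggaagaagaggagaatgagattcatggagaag

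The order of libraries differed between the 2 genes. Krt15-negative replicate 3 had the highest Psmb9 value, 65.7 FPKM, beside 0.830 FPKM of Tap1, and Krt15-negative replicate 2 had the highest Tap1 value, 5.10 FPKM, with Psmb9 listed at 0. In Krt15-positive replicates 1 and 2 both genes stood above 2 FPKM. In Krt15-positive replicate 3 Psmb8, which lies beyond Tap1, was at 20.7 FPKM and Psmb9 at 0.

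Ratios within a library set each immunoproteasome subunit against the constitutive subunit it replaces. They would need no scaling between libraries but for the 1 FPKM added to each value, which matters where a value is low. The log2 ratio of Psmb8 to Psmb5, with 1 FPKM added to each, was -2.66, -6.17 and -3.29 in Krt15-positive and -7.98, -7.69 and -3.26 in Krt15-negative libraries (-4.04 ± 1.87 and -6.31 ± 2.64, SD, n = 3 each). The difference of 2.27 gave an exact 2-sided permutation p = 0.30, adjusted p = 0.75 over 3 ratios. Because Psmb8 was listed at 0 in 2 Krt15-negative libraries, its size turns on what is added: it was 4.37 with 0.1 FPKM and 1.09 with 5 FPKM. The ratio of Psmb9 to Psmb6 was -5.84, -5.95 and -9.72 in Krt15-positive and -10.1, -9.65 and -3.81 in Krt15-negative libraries (exact permutation p = 0.90, adjusted 0.90). The ratio of Psmb10 to Psmb7 was closest to even, at 0.25, -1.92 and 0.16 in Krt15-positive and -5.28, -1.27 and -0.0088 in Krt15-negative libraries (exact permutation p = 0.50, adjusted 0.75). Where an immunoproteasome subunit was listed at 0, its ratio reflects only the constitutive gene and the added 1 FPKM. That was also so for Psmb9 in Krt15-positive replicate 3 and Krt15-negative replicate 2, and for Psmb10 in Krt15-negative replicate 1. With 3 libraries against 3 the smallest possible p is 0.10, and the groups overlapped for all 3 ratios. Psmb5 and Psmb6 were abundant in every library, Psmb5 between 205 and 331 FPKM and Psmb6 between 708 and 1185 FPKM.

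**Figure D3:**
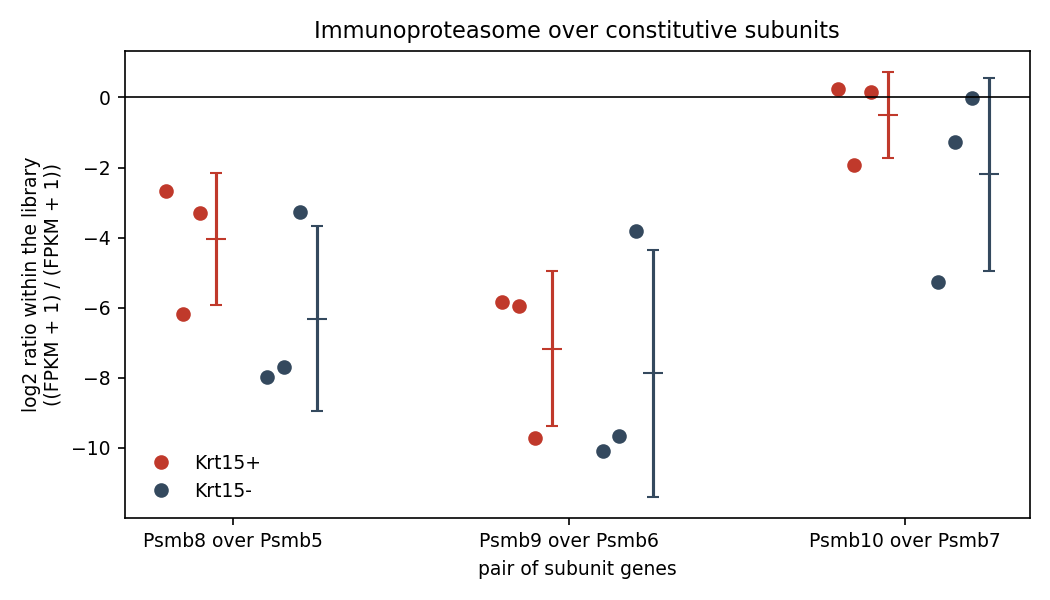
Log2 ratio of each immunoproteasome subunit to its constitutive counterpart within a library (y axis, 1 FPKM added to each), for 3 pairs of genes (x axis). Points are libraries, Krt15-positive left of Krt15-negative, with a bar at the mean and error bars of 1 SD. Psmb8 over Psmb5 spans -7.98 to -2.66 and Psmb10 over Psmb7 reaches 0.25.

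Of the antiviral members, Ifitm3 stood alone in its level. Ifitm3, a membrane protein that blocks virus entry, stood at 3303, 1619 and 1682 FPKM in Krt15-positive and 3005, 1507 and 2660 FPKM in Krt15-negative libraries (2201 ± 955 and 2391 ± 785, SD, n = 3 each). Its highest library was only 2.19 times its lowest, the narrowest range of the members above 0 in all libraries, and it lay at or above the 99.7th percentile of all genes in each library. The difference was -0.14 (limma, SE 0.35, interval -0.91 to 0.63, adjusted p = 0.92), which upper-quartile scaling moved to 0.26. The neighbouring family member Ifitm2, of the list of further interferon-stimulated genes, was likewise high, at 1470, 1303 and 790 FPKM in Krt15-positive and 1520, 1289 and 1586 FPKM in Krt15-negative libraries. Of the 50-base stretches of the Ifitm3 transcript, 10% occur in other genes.

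Usp18 and Bst2 came next in mean level and both had zeros. Usp18, a protease that removes Isg15 from proteins and dampens the type I receptor, stood at 49.3, 45 and 10.5 FPKM in Krt15-positive and 0, 72.5 and 70.4 FPKM in Krt15-negative libraries. Its difference of 0.78 (SE 1.59, limma adjusted p = 0.90) turned to -1.28 without Krt15-negative replicate 1, the library in which it was listed at 0. Bst2, tetherin, which holds budding virus at the cell surface and is also high in plasmacytoid dendritic cells, stood at 38.2, 5.86 and 0 FPKM in Krt15-positive and 0, 71 and 122 FPKM in Krt15-negative libraries. The Bst2 difference was -1.68 (SE 1.88, 95% CI -5.80 to 2.44, limma adjusted p = 0.82), the lowest of the members. Leaving out Krt15-positive replicate 3 gave -0.34, leaving out Krt15-negative replicate 1 gave -3.87, leaving out Krt15-negative replicate 3 gave -0.39, and library weights gave -3.37. The list of plasmacytoid dendritic cell and macrophage markers holds 9 measured genes, Bst2 among them. Of these, 2, 4 and 1 reached 1 FPKM in Krt15-positive and 1, 2 and 4 in Krt15-negative libraries. C1qb was at 0, 20.4 and 0 FPKM in Krt15-positive and 8.72, 0 and 96.8 FPKM in Krt15-negative libraries. Tcf4 was at 5.72, 5.69 and 4.725 FPKM in Krt15-positive and 0.217, 10.9 and 3.77 FPKM in Krt15-negative libraries. Siglech, a marker of plasmacytoid dendritic cells, was at 0 in all libraries but Krt15-negative replicate 1, where it was at 0.0146 FPKM. Whether such cells contribute to the Bst2 level was not tested.

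The classical inducible effectors were low and uneven. Isg15, a ubiquitin-like modifier, stood at 9.62, 0.0903 and 7.13 FPKM in Krt15-positive and 0, 0 and 15.6 FPKM in Krt15-negative libraries (difference 0.84, SE 1.40, limma adjusted p = 0.88). Oas1a, an oligoadenylate synthetase that senses double-stranded RNA, stood at 13.6, 2.58 and 0 FPKM in Krt15-positive and 0, 0 and 14.3 FPKM in Krt15-negative libraries (difference 0.59, SE 1.39, limma adjusted p = 0.92). Oas1a shares 57.6% of its 50-base stretches with Oas1g, so these values are uncertain. Xaf1, a pro-apoptotic interferon target, stood at 2.02, 4.47 and 20 FPKM in Krt15-positive and at 0, 0 and 8.40 FPKM in Krt15-negative libraries (difference 1.74, SE 1.29, limma adjusted p = 0.79). In all 3 genes the highest Krt15-negative library was replicate 3, and replicates 1 and 2 were listed at 0.

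Another 4 effectors reached 1 FPKM in 1 library only, and it was the same one, Krt15-positive replicate 1. Ifit1, which binds viral RNA caps, stood there at 4.08 FPKM, Ifi44 at 1.42, Gbp2, a guanylate-binding protein, at 1.22 and Mx1, a dynamin-like antiviral GTPase, at 1.02 FPKM. Elsewhere these 4 did not exceed 0.0359 FPKM. That makes 4 of the 25 members that reached 1 FPKM anywhere, or 16%, whereas 4.51% of the 11590 such genes in the table reached it in that library alone. Among 44 further interferon-stimulated genes that reached 1 FPKM, 1 gene, Oas1b, did so only there, while 4 did so in Krt15-negative replicate 2 alone (Irgm2, Gbp9, Slfn9 and Cd274) and 4 in Krt15-negative replicate 3 alone (Ifi47, Iigp1, Tgtp1 and Cmpk2). These genes are named after their values were seen. The library in question is the one with 7279 FPKM of Lyz2, and any link between these values was not tested.

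Of the lowest members, Ifit2, Rsad2, Ifit3 and Oasl1 stood at about 2 fragments or fewer. Ifit2 was at 0.00728 FPKM in Krt15-positive replicate 2 and 0.00629 FPKM in Krt15-negative replicate 3, each about 0.95 fragments by the depth estimate, and at 0 elsewhere. Rsad2, viperin, was at 0.0152 and 0.00657 FPKM in the same libraries, about 2 and 0.98 fragments. Ifit3 and Oasl1 were each seen only in Krt15-positive replicate 2, at 0.0149 and 0.0140 FPKM, or about 0.89 and 1 fragments. Gbp3 was at 0.175 FPKM in Krt15-negative replicate 3, about 19 fragments, and 0 elsewhere, and Mx2 was listed at 0 in all 6 libraries. Oasl2 lay just under the testing limit, at 2.45, 0 and 0.179 FPKM in Krt15-positive and 0, 0 and 2.49 FPKM in Krt15-negative libraries. Ifit3 shares 51.2% of its stretches with Ifit3b.

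Irf1, Irf7 and Irf9 were present in most libraries and lowest in Krt15-negative replicate 1, and Stat2 was listed at 0 in 3 libraries. Irf1, a factor induced by interferon gamma, stood at 30.4, 31.7 and 3.70 FPKM in Krt15-positive and 0.219, 16.8 and 18.3 FPKM in Krt15-negative libraries (21.9 ± 15.8 and 11.8 ± 10.1, SD, n = 3 each). Irf9, the DNA-binding part of the type I complex, stood at 4.26, 12.4 and 27.5 FPKM in Krt15-positive and 0, 16.1 and 10.2 FPKM in Krt15-negative libraries. Irf7, which drives interferon alpha genes, stood at 2.65, 9.16 and 8.36 FPKM in Krt15-positive and 0, 9.63 and 1.81 FPKM in Krt15-negative libraries. Stat2, which joins Irf9 in that complex, stood at 0, 0.762 and 5.10 FPKM in Krt15-positive and 0, 0.559 and 0 FPKM in Krt15-negative libraries. Their differences were 1.17 (Irf1, SE 1.40), 1.13 (Irf9, SE 1.36), 1.18 (Irf7, SE 1.22) and 0.93 (Stat2, SE 0.88), with limma adjusted p between 0.79 and 0.83. Without Krt15-negative replicate 1 those of Irf1 and Irf9 turned to -0.14 and -0.13.

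The 2 cytosolic RNA sensors were low. Ifih1 (MDA5), which recognises long double-stranded RNA, stood at 4.61, 0 and 3.56 FPKM in Krt15-positive and 0.00631, 2.46 and 0.0275 FPKM in Krt15-negative libraries (difference 0.95, SE 1.02, limma adjusted p = 0.81). Ddx58 (RIG-I), which recognises RNA ends, stood at 0.0143, 1.34 and 0 FPKM in Krt15-positive and 0, 0.438 and 0.469 FPKM in Krt15-negative libraries, under the limit for testing.

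Across the members, no difference between Krt15-positive and Krt15-negative cells passed. Averaged over the 6 libraries, 19 of the 31 reached 1 FPKM and were tested with all 9423 such genes, and 0 of the 19 had a limma adjusted p below 0.05, as did 0% of all genes tested. At an unadjusted p below 0.05 there were 0 members, while in Krt15-positive cells 3.18% of all genes tested were higher and 0.743% lower at that level. With library weights limma called 8 genes, none of them a member. No tested member had groups that did not overlap, while 8.85% of all genes were higher and 2.44% lower in Krt15-positive libraries without overlap.

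The members' directions were close to those of the whole table. Of the 19, 13 had a difference above 0 and 6 below 0, beside 68.6% above and 31.4% below 0 among all genes tested. The median was 0.78 over the 19 tested members and 0.63 over all genes tested. It was 1.15 for the 4 transcription factors, 0.69 for the 6 tested antiviral genes and 0.17 for the 8 MHC class I and processing genes. These counts turn on Krt15-negative replicate 1: without it 8 of the 19 were above 0, beside 50.9% of all genes, and the medians were -0.13 and 0.02. The split also moved with the scaling: 17 of the 19 were above 0 with upper-quartile scaling, beside 76.9% of all genes, 13 with quantile normalization, beside 51.8%, and 9 with library weights, beside 56.7%. The 6 members below 0 were Bst2, H2-K1, B2m, Tapbp, Ifitm3 and H2-D1. All but Bst2 of these are the members at 1 FPKM or more in every library, and with upper-quartile scaling only Bst2 and H2-K1 of the 19 were below 0.

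**Figure D4:**
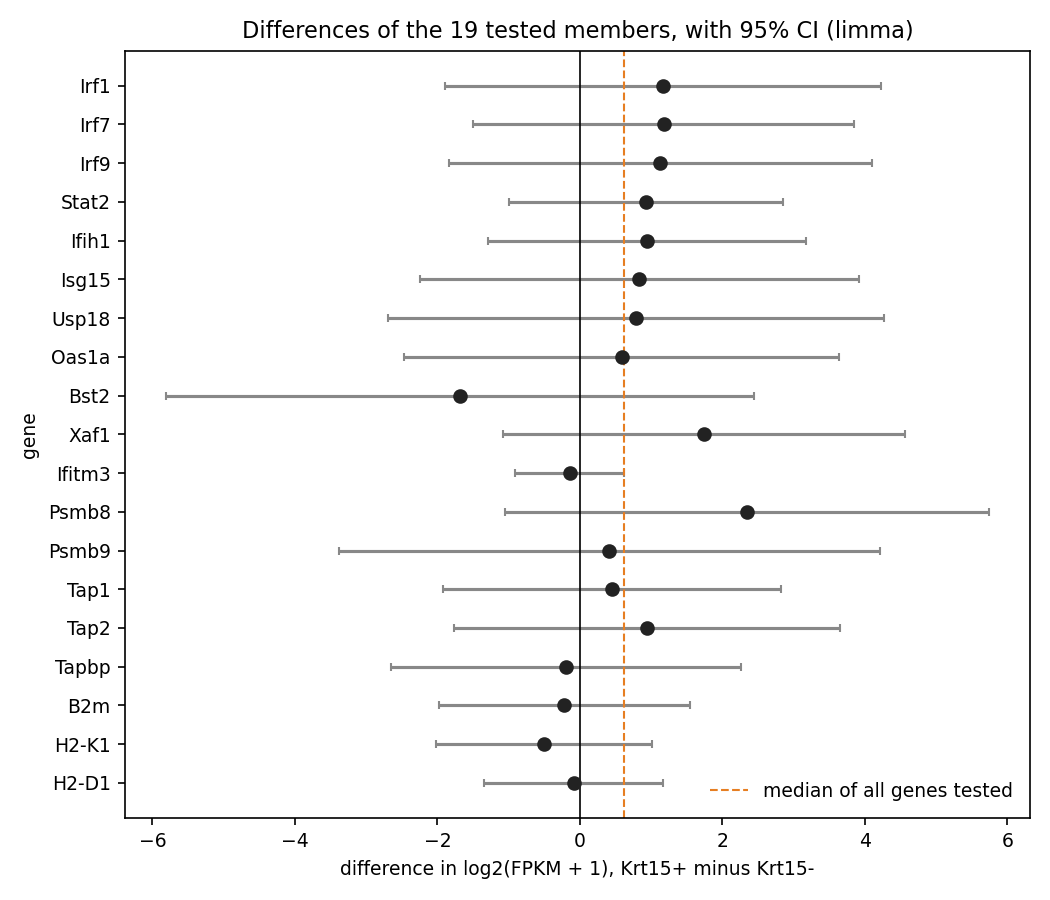
Difference in log2(FPKM + 1), Krt15-positive minus Krt15-negative (x axis), for the 19 tested members (y axis), with 95% confidence intervals from limma. The dashed line is the median of all genes tested, 0.63, and every interval spans 0.

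Most interferon genes were listed at 0. Of 21 measured interferon genes, 19 were listed at 0 in all 6 libraries, among them Ifnb1, and Ifnz was at 0.0042 FPKM in Krt15-positive replicate 2 alone. Ifng, interferon gamma, a product of T and NK cells, reached 46.2 FPKM in Krt15-negative replicate 2, and its other values were 0 apart from 0.0295 FPKM in Krt15-positive replicate 3. Nkg7, a granule protein of T and NK cells, was at 459 FPKM in that same library and nowhere else above 0.0936 FPKM. The members Tap1, Irf7 and Usp18 had their highest value of the 6 in that library, while Isg15, Oas1a, Xaf1, Psmb8 and Psmb9 were listed at 0 there, and any link to Ifng was not tested.

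Receptor and signalling genes were present at low level, and 0 of 19 tested passed (14 above and 5 below 0, median 0.93). Without overlap, 2 of the 19 were higher in Krt15-positive libraries, Ifngr2 and Jak1, and 1 was lower, Ifnlr1, beside the 8.85% and 2.44% of all genes. Ifnlr1, a chain of the type III receptor, stood at 1.15, 0 and 0 FPKM in Krt15-positive and 5.40, 5.15 and 1.73 FPKM in Krt15-negative libraries (difference -1.88, SE 0.95, limma adjusted p = 0.79). Ifngr2, a chain of the interferon gamma receptor, stood at 4.98, 9.13 and 10.5 FPKM in Krt15-positive and 0, 0 and 3.36 FPKM in Krt15-negative libraries (difference 2.44, SE 1.103, limma adjusted p = 0.79). Ifngr1, its partner, stood at 15.5, 9.13 and 0 FPKM in Krt15-positive and 0.0168, 39.8 and 14.9 FPKM in Krt15-negative libraries. Of the type I receptor chains, Ifnar1 stood at 0.135, 4.60 and 0.0321 FPKM in Krt15-positive and 0, 3.09 and 0.806 FPKM in Krt15-negative libraries, and Ifnar2 at 0.107, 10.4 and 16.8 FPKM in Krt15-positive and 0, 0 and 16.7 FPKM in Krt15-negative libraries. Among the most abundant genes of this list were Socs3 and Ptpn2, which dampen JAK signalling. Socs3 stood at 24, 80.4 and 11.4 FPKM in Krt15-positive and 23.9, 30.6 and 13.5 FPKM in Krt15-negative libraries. Ptpn2 stood at 17.2, 33.5 and 25.6 FPKM in Krt15-positive and 0.0223, 61.5 and 43.9 FPKM in Krt15-negative libraries. The groups overlapped for both.

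None of the tested genes of the other lists passed. Of 32 tested further interferon-stimulated genes 15 were above and 17 below 0 (median -0.19). Without overlap, 3 of the 32 were higher and 0 lower in Krt15-positive libraries, beside 8.85% and 2.44% of all genes tested. Ifi27 was at 487, 390 and 680 FPKM in Krt15-positive and 867, 530 and 679 FPKM in Krt15-negative libraries. Ifi27l2a was at 78, 42.9 and 216 FPKM in Krt15-positive libraries and between 128 and 997 FPKM in Krt15-negative ones, which overlapped (difference -2.18, SE 0.86, limma adjusted p = 0.79). Of 20 tested other class I pathway genes, 7 were above and 13 below 0 (median -0.25). The proteasome activator genes Psme2 and Psme1 were the highest of these, Psme2 at 594, 518 and 459 FPKM in Krt15-positive and 677, 583 and 885 FPKM in Krt15-negative libraries, and Psme1 at 184, 170 and 134 FPKM in Krt15-positive and 245, 147 and 212 FPKM in Krt15-negative libraries. The next was Pdia3, a chaperone of the loading complex, at 168, 273 and 216 FPKM in Krt15-positive and 18.4, 256 and 161 FPKM in Krt15-negative libraries. Nlrc5, the transactivator of class I genes, stood at 2.17, 0.0041 and 1.63 FPKM in Krt15-positive and 0.0049, 0.0100 and 0 FPKM in Krt15-negative libraries, under the limit for testing. Psmb10 stood at 56.5, 19.3 and 70 FPKM in Krt15-positive and 0, 42.5 and 68.6 FPKM in Krt15-negative libraries. Of 8 tested sensors and adaptors, 6 were above and 2 below 0 (median 0.73). The adaptor Myd88 led them at 47, 46.3 and 34.7 FPKM in Krt15-positive and 25.3, 103 and 35 FPKM in Krt15-negative libraries, followed by the kinase Tbk1, at 2.32, 10.3 and 1.52 FPKM in Krt15-positive and 0, 11.4 and 3.38 FPKM in Krt15-negative libraries, and by Zbp1, a nucleic acid sensor seen in Krt15-positive replicate 3 alone (28.2 FPKM).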

How the data were processed

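RNA of sorted mouse esophageal basal cells was measured in 6 libraries, prepared directly from cells with a SMART-Seq v4 kit per the labels' protocols, which does not mark strand. The deposited values are FPKM per gene and library. The submitters' processing notes name the mm9 build and the tools Cufflinks 2.2.1, STAR 2.5 and DESeq2 without saying what each did. Annotation and filters: not given in the sources used here. FPKM lets reads be shared between near-identical genes. Of 24043 rows, 27 whose symbols had become dates were left out.

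Values were analysed as log2(FPKM + 1), a scale that understates changes of low genes. Genes averaging 1 FPKM or more, 9423 in all, were tested with limma 3.58.1 (R 4.3.3, variance trend, group as the only term), 2-sided, with Benjamini-Hochberg adjustment and a threshold of 0.05. The code was tested on simulated data. Nothing in the labels says that libraries of a group come from separate animals, so the p-values reflect only how these libraries varied, which may be technical. The 2172 genes with a single annotated transcript of 1500 bases or more gave the depth, which is approximate, and no counting intervals are given. Shared 50-base stretches were counted in GENCODE M21 transcripts, with the longest protein-coding transcript of each member. Promoters came from RefSeq. Proteasome ratios were compared by exact permutation tests. Alternatives were other pseudocounts, low-value limits and scalings, library weights, a replicate block and leaving out each library.

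The members, lists and tests were chosen with earlier results of these data known. All 31 members are described. Of each further list, the 3 genes of highest mean FPKM are named, plus the interferon receptor genes, Nlrc5 and Psmb10, except genes that are not reported here. Ifnlr1, Jak1, Trp63, Itgb1 and Tbp were added after their values were seen. Ptprc and Siglech are also named outside this rule. Protein sequences were not used here.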

Additional observations from a re-analysis of the deposited data

How the results depend on the processing

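The count of members passing the threshold was 0 under each of the 14 alternatives run, with a smallest adjusted p of 0.456 for any tested member. Over all genes the count was 0 under each alternative except library weights, which gave 8 genes. Those weights were uneven, highest for Krt15-negative replicate 3 (3.2) and lowest for Krt15-negative replicate 1 (0.225), so weighted results lean on the former. The median difference over all 31 members, 0.39, was between 0 and 0.49 when 1 library was left out, 1.2 with a pseudocount of 0.1 FPKM and 0.09 with 5. It was not computed with quantile normalization or library weights, where members under the limit have no fitted value.

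The low-value limits and the replicate block cannot change a member's difference, so they are no check of its sign. Of the 19 tested members, 7 kept their sign under all the other alternatives: Irf7, Stat2, Ifih1, Xaf1, Psmb8 and Tap2 above 0 and Bst2 below 0. Their size did not hold: library weights gave 0.11 for Psmb8 and 0.073 for Xaf1, and quantile normalization 0.0034 for Ifih1. When 1 library was left out, Bst2 ran from -3.87 to -0.34, Stat2 from 0.20 to 1.5, Tap2 from 0.064 to 1.76, Irf7 from 0.36 to 2.07, Ifih1 from 0.48 to 1.73, Xaf1 from 0.95 to 2.81 and Psmb8 from 1.51 to 4.02. The other tested members turned under at least 1, and no cause was tested. Upper-quartile scaling gave 0.26 for Ifitm3, 0.18 for Tapbp, 0.18 for B2m and 0.31 for H2-D1. Quantile normalization gave 0.34 for Ifitm3, 0.06 for H2-D1, -0.0087 for Oas1a and -0.90 for Psmb9. Library weights gave -1.01 for Isg15, -0.76 for Usp18, -0.91 for Oas1a and -2 for Psmb9. These 3 settings moved the median over all genes tested from 0.63 to 0.85, 0.04 and 0.17 in that order. A pseudocount of 5 FPKM gave -0.11 for Psmb9. When 1 library was left out, differences ran from -0.14 to 2.10 for Irf1, from -0.13 to 1.91 for Irf9, from -1.28 to 1.82 for Usp18, from -0.39 to 1.90 for Oas1a and from -0.47 to 0.055 for Ifitm3. They ran from -0.61 to 2.42 for Psmb9, from -0.13 to 1.18 for Tap1, from -0.86 to 0.65 for Tapbp, from -0.86 to 0.60 for B2m, from -1.11 to 0.0028 for H2-K1 and from -0.51 to 0.25 for H2-D1. The difference in the log2 ratio of Psmb9 to Psmb6 ran from -0.44 to 2.73, that of Psmb8 to Psmb5 from 1.44 to 3.80 and that of Psmb10 to Psmb7 from 0.13 to 2.77. With 0.1 and 5 FPKM added these differences were 1.57 and 0.17 for Psmb9, 4.37 and 1.09 for Psmb8 and 2.77 and 0.98 for Psmb10.

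The labels give both groups the replicate numbers 1 to 3, with the sample names of each number sharing s546, s568 or s569. Deviations from the group means correlated at 0.13, 0.17 and 0.0089 across 9423 genes for same-numbered libraries. For differently numbered libraries the correlations ran from -0.16 to 0.029. The first 2 pairs lay above that range and the third within it, so the third pair does not bear out a pairing. Deviations cancel out within a group, so a higher correlation in 1 pair lowers others. The range is therefore no independent reference, and whether the numbers pair the libraries cannot be told from it. With the replicate block 0 members and 0 genes passed, and the median difference of the members was 0.39, which the block cannot change.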
